A study of Homo sapiens with 21 samples.

Results

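The synaptic vesicle and exocytosis genes are 37 genes for proteins with which neurons hold, dock, fuse and retrieve transmitter vesicles. They were taken by symbol, through the Ensembl identifier of each row, from the 62656 genes of the count table, and all 37 were present. The rule names genes and uses no measured value. The members and the lists of further genes were, however, chosen with earlier results of these data known. Comparisons of the members with all genes or with those lists are therefore descriptions only. The cells were SH-SY5Y, a cloned human neuroblastoma line with the labelled genotype WT, after an 11-day differentiation into neuron-like cells. Each of 6 groups was then given 30 µM of 1 per- or polyfluoroalkyl substance (PFAS) for 24 h in a solution with 1% methanol. The substances were PFOA and its longer-chain relative PFDA, which carry a carboxylic acid head, PFOS and the longer PFDS, which carry a sulfonic acid head, the fluorotelomer sulfonic acid 8:2 FTS and the fluorotelomer alcohol 8:2 FTOH. A seventh group served as control, and its methanol content is not given in the sources used here. Total RNA freed of ribosomal RNA was sequenced in 3 libraries per group, 21 in all. The labels say that treatments were run in triplicate but not that the 3 libraries of a group came from separate cultures, so each p-value reflects the spread among these samples alone, and that spread may be technical.

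As background, transmitter is packed into vesicles whose membrane carries synaptophysin, the SV2 glycoproteins and the synaptogyrins. Synapsins tether these vesicles in a reserve, RAB3 GTPases guide them to release sites, and the scaffolds bassoon, piccolo and RIM, with UNC13A, dock and prime them there. The SNAREs VAMP2, STX1A and SNAP25 then pull the membranes together under the control of complexins and of synaptotagmins, which sense calcium. After fusion NSF takes the SNARE bundle apart, and dynamin, synaptojanin and the coat adaptors retrieve the membrane. Cells of the sympathetic lineage, from which neuroblastoma arises, also use much of this machinery to release noradrenaline from large dense-core vesicles.

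Library totals ran from 7680024 to 30429746 counts, and the 3 control libraries lay above the median of 14633793. Control replicate 3 and 8:2 FTOH replicate 3 differed from the other 19: 6.33% and 6.11% of their counts fell on mitochondrially encoded genes, against 3.37% to 5.4% elsewhere, and the authors' normalized table holds the other 19 libraries. Among the 3 controls, replicate 3 was the highest or the lowest in 29 of 36 members (72.0% of the 24879 genes tested) and replicate 1 in 30 (69.5%). Of 3 values 2 are always outermost, so this count does not measure distance. A chi-square per degree of freedom set replicate differences against counting noise, and it also rises with depth. Between controls it was 36.5 and 36.4 with replicate 3 and 8.82 without it. For 8:2 FTOH it was 29.6 and 46.6 with replicate 3 and 5.11 without it, and in the other groups 4.06 to 17.6. Values without control replicate 3 and 8:2 FTOH replicate 3 are given beside the counts below. The labelled cell type was checked against its markers. Of 8 genes of adrenergic neuroblastoma, 7 were above 1 CPM in control (counts scaled to 1000000 per library, by the TMM-scaled library size), with a summed level of 3400 to 3807 CPM, while TH, which encodes the enzyme that makes the noradrenaline precursor, was at 0.592 ± 0.145 CPM (SD, n = 3). Of 7 glial and Schwann cell markers, GFAP, S100B and AQP4 were under 1 CPM, and the list summed to 11.6 to 13.7 CPM. Of 10 mesenchymal-type markers, PRRX1, YAP1, COL1A2 and WWTR1 were under 1 CPM, PRRX1 having no count in any control library. The rest of that list were above 1 CPM, and the list summed to 93.7 to 101 CPM. FN1 was its highest at 43.9 ± 3.27 CPM in control (SD, n = 3), followed by VIM at 25.6 ± 1.44. The cycling cell markers MKI67 and TOP2A were at 856 ± 32.2 and 547 ± 50.6 CPM in control, so transcripts of dividing cells were present.

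Nearly all of the listed members were detected in the control cells. Of the 37 members, 36 passed the filter on low counts, and AMPH, which encodes the membrane-bending protein amphiphysin, did not: it had 0 to 4 counts per library and none in 7 of the 21. Compared per length (CPM per kb of annotated exon sequence), control levels of the 36 members spanned a 545-fold range around a median of 15.7 CPM per kb. The order was fine-grained: of 36 neighbouring pairs among all 37 members, AMPH included, 21 overlapped in the range of their 3 control libraries and so do not differ beyond their spread. Exon length here is the sum of all annotated exons, so a gene with long alternative exons, such as SNAP25 with 20369 bases, comes out low on this scale.

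Synaptotagmins led this order. SYT11, which is thought to act in membrane retrieval and binds no calcium, stood at 102 ± 1.47 CPM per kb in control (SD, n = 3), above SYT4 at 84.2 ± 3.97, and the ranges of these libraries did not overlap. SYT1, the fast calcium sensor of release, was at 18.4 ± 2.17 and SYT5 at 9.51 ± 1.77 CPM per kb. In all 21 libraries SYT11 exceeded SYT4, SYT4 exceeded SYT1 and SYT1 exceeded SYT5. The ratio of SYT4 to SYT1 was 4.60 ± 0.395 in control and 3.93 to 5.14 over all libraries. SYT11 itself was at 523, 539 and 530.3 CPM in control replicates 1, 2 and 3, 447, 540.3 and 485 with PFOA, 470.3, 525 and 513 with PFOS, 504, 473 and 511 with PFDA, 507, 500.0 and 605 with PFDS, 514, 476 and 557 with 8:2 FTS and 519, 545 and 540.0 with 8:2 FTOH. Every compound group except PFDA overlapped control for it.

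Among vesicle membrane proteins the SV2 family, glycoproteins of unsettled transport function, showed the widest split. SV2C was at 61.2 ± 0.963 CPM per kb, SV2A, the binding site of the drug levetiracetam, at 36.6 ± 1.098, and SV2B at 0.188 ± 0.0276. SV2C exceeded SV2A in all 21 libraries, by a ratio of 1.42 to 1.90. SYN1 (9.18 ± 1.38) and SYN2 (9.33 ± 1.26 CPM per kb) did not differ beyond their spread, and SYN2 was the higher of them in 15 of 21 libraries. SYN3 was lower than SYN1 in all 21. RAB3A (24.1 ± 2.3 CPM per kb) exceeded RAB3C (19.4 ± 1.46) in 20 of 21 libraries, and RAB3B was at 8.47 ± 1.08.

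SNARE levels were uneven between paralogues. VAMP2, the main vesicle SNARE of brain synapses, was at 31.7 ± 2.05 CPM per kb and VAMP1 at 3.34 ± 0.0260, a ratio of 9.50 ± 0.658 in control and 7.81 to 16.9 over all libraries. VAMP1 shares 10.4% of its exon length with TAPBPL on the other strand, and reads were counted without regard to strand, leaving out those shared by several genes, so its level is uncertain. VAMP2 was at 96.9, 102 and 110.0 CPM in control replicates 1, 2 and 3, 83.6, 108 and 93.9 with PFOA, 90.01, 102 and 99.3 with PFOS, 99.8, 88.2 and 105 with PFDA, 108, 97.5 and 114 with PFDS, 109, 112 and 100.2 with 8:2 FTS and 96.7, 109 and 103 with 8:2 FTOH. VAMP1 was at 11.02, 10.9 and 10.9 CPM in control replicates 1, 2 and 3, 9.597, 8.88 and 12.1 with PFOA, 10.7, 11.9 and 10.1 with PFOS, 11.4, 11.3 and 9.83 with PFDA, 10.98, 10.6 and 7.93 with PFDS, 10.3, 9.99 and 5.98 with 8:2 FTS and 9.72, 9.91 and 8.66 with 8:2 FTOH. The complexins, which clamp and then assist fusion, were nearly level, with CPLX2 at 26.3 ± 1.23 and CPLX1 at 24.6 ± 2.75 CPM per kb. STX1A stood at 15.7 ± 1.84, NAPB at 19.5 ± 1.804 and NSF at 4.77 ± 0.727 CPM per kb.

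In the active zone list the scaffold gene PCLO was highest and the neurexin gene NRXN3 lowest. PCLO was at 27.5 ± 4.87 and its relative BSN at 10.7 ± 0.947 CPM per kb, while the priming factor UNC13A was at 23.9 ± 1.48. PCLO was at 533, 605 and 752 CPM in control replicates 1, 2 and 3, 605, 659 and 616 with PFOA, 659, 601 and 625 with PFOS, 679, 648 and 653 with PFDA, 544, 660.4 and 714 with PFDS, 683, 742 and 487 with 8:2 FTS and 547, 712 and 703 with 8:2 FTOH, highest in control replicate 3. RIMS2 exceeded RIMS1 in all 21 libraries, by 3.23 to 5.72 times, and NRXN2 exceeded NRXN3 by 14.7 to 30.7 times. NRXN3 was at 14.6, 11.2 and 9.99 CPM in control replicates 1, 2 and 3, 13.5, 12.7 and 16.3 with PFOA, 11.9, 12.6 and 11.7 with PFOS, 12.3, 15.01 and 11.8 with PFDA, 8.53, 12.2 and 13.1 with PFDS, 10.6, 11.8 and 8.54 with 8:2 FTS and 11.8, 11.4 and 9.44 with 8:2 FTOH. Of the endocytosis genes, SNAP91, which encodes the clathrin adaptor AP180, was highest at 27.3 ± 2.47 CPM per kb, followed by DNM1 at 17.04 ± 1.57, SYNJ1 at 7.01 ± 0.446 and DNM3 at 4.57 ± 0.459. SNAP91 was at 169.7, 175 and 201 CPM in control replicates 1, 2 and 3, 168, 187 and 187 with PFOA, 198, 196 and 189 with PFOS, 183, 181 and 189.8 with PFDA, 182, 187 and 199 with PFDS, 184, 169.9 and 197 with 8:2 FTS and 174, 179 and 174 with 8:2 FTOH. These ratios between paralogues thus kept their direction in every library of every exposure, apart from SYN2 to SYN1 and RAB3A to RAB3C.

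**Figure D1:**
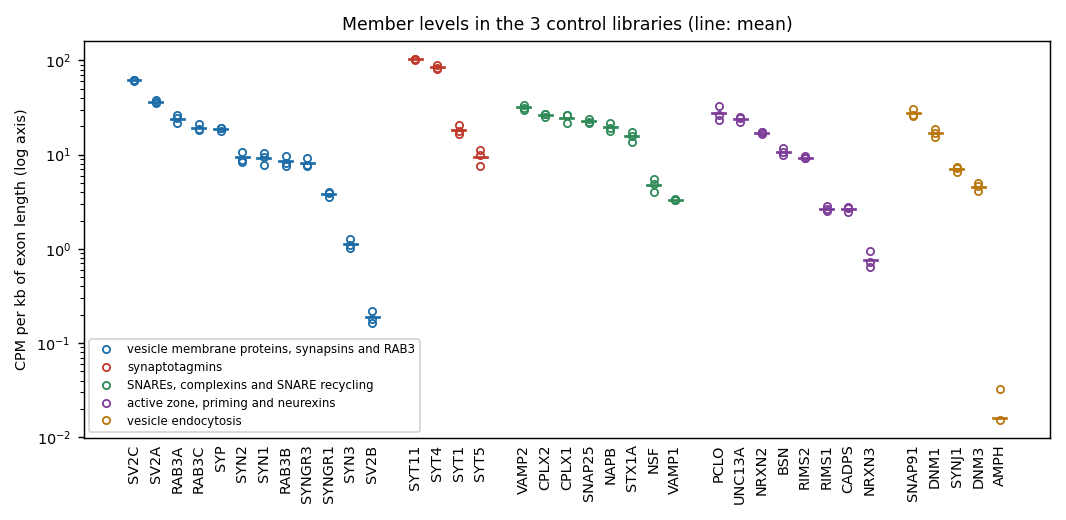
Levels of the 37 members in the 3 control libraries, on a log axis in CPM per kb of exon length, grouped by role; open circles are libraries and the line is their mean. SYT11 is highest at 102 CPM per kb, SV2B is the lowest member that was tested, and the AMPH library with no count cannot be drawn on a log axis.

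Exposure was then compared with control for each compound, at a concentration that the series calls sub-toxic. No member passed an adjusted p of 0.05 for any compound (edgeR's quasi-likelihood test with Benjamini-Hochberg adjustment over 24879 genes). Few genes of any kind did: 0.0322% for PFOA, 0.00804% for PFDA, 0.0241% each for PFOS and PFDS, 0.0844% for 8:2 FTS and 0.0322% for 8:2 FTOH At such shares a count of 0 in 36 members is near the background. By DESeq2, which gives no adjusted p to some genes, 2 of the 27 members with one passed for PFOA (SV2C and SYP), beside 2.11% of the 6064 genes with one. For PFDA 0 of 14 members passed by DESeq2, and for each of the other 4 compounds 0 of 36. The members nonetheless lay mostly on the low side of control, by small amounts. The 6 comparisons share the same 3 control libraries, so their agreement in sign is not independent. In bulk RNA, fewer cells of a type and less RNA per cell cannot be told apart.

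For PFOA, 29 of 36 members had a log2 fold change below 0, where 48.2% of all genes tested did. Their median was -0.10, with 0.01 for all genes. At an unadjusted p under 0.05, 10 members were lower and 0 higher, against 5.6% and 4.46% of all genes. All 3 PFOA libraries lay below all 3 controls for 7 members (8.46% of all genes) and above them for 1, SYNGR1 (7.45%).

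For PFDA, the longer carboxylic acid, 30 of 36 members were below 0 (48.5% of all genes), with a median of -0.08. At an unadjusted p under 0.05, 8 were lower and 0 higher (4.39% and 4.04% of all genes). Libraries did not overlap for 9 members below control (7.85%) and 1 above, SV2B (7.92%).

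PFOS gave 28 of 36 members below 0 (48.4% of all genes), with a median of -0.06. At an unadjusted p under 0.05, 4 were lower and 0 higher (3.57% and 3.26% of all genes), and 4 members lay wholly below control (7.41%) and 0 above (6.62%). PFDS gave 24 of 36 below 0 (49.5%), a median of -0.04, 1 member lower and 1 higher at an unadjusted p under 0.05 (3.03% and 2.56%), and 1 wholly below control (4.53%) with 0 above (3.72%). The PFDS median rested on single libraries: it was -0.10 without PFDS replicate 3 and -0.02 without replicate 1.

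For 8:2 FTS, 24 of 36 members were below 0 (48.4% of all genes), with a median of -0.06. At an unadjusted p under 0.05, 6 were lower and 1 higher (4.2% and 3.57%), and 8 lay wholly below control (7.17%) and 2 above (6.64%). For 8:2 FTOH, 27 of 36 were below 0 (49.3%), with a median of -0.09. There 6 were lower and 0 higher at an unadjusted p under 0.05 (4.28% and 3.55%), and 8 lay wholly below control (6.98%) and 1 above (5.95%).

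These medians are smaller than the interval of a typical member. The median distance from estimate to bound of the 95% interval was 0.17 on the log2 scale for each compound. The interval lay within a 1.5-fold change either way for 34 to 35 of the 36 members, depending on the compound, and within 2-fold for 35 to 36. Over the 216 pairs of member and compound, the interval reached lowest for SYN1 with PFOA, at -0.69, and highest for SV2B with 8:2 FTOH, at 1.07.

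The count of members below 0 depended on the scaling. With library size alone in place of TMM, the median of all genes lay at 0.03 to 0.08, from 0.00 to 0.01 with TMM, and 23 members were below 0 for PFOA, 21 for PFDA, 20 for PFOS, 22 for PFDS, 21 for 8:2 FTS and 25 for 8:2 FTOH, beside 35.3% to 43.9% of all genes. The distance between the members' median and that of all genes was -0.11 for PFOA with TMM and -0.12 with library size. Over the 19 libraries that the authors normalized, 25 members were below 0 for PFOA, 27 for PFDA, 25 for PFOS, 21 for PFDS, 26 for 8:2 FTS and 22 for 8:2 FTOH. In those 19 libraries, with 2 controls, 14 members lay wholly below control for PFOA (15.7% of all genes), 16 for PFDA (14.3%), 10 for PFOS (13.7%), 7 for PFDS (9.51%), 14 for 8:2 FTS (12.8%) and 19 for 8:2 FTOH (19.7%), a count added after seeing the data. Wholly above were 2 for PFOA (15.3%), 3 for PFDA (15.3%), 2 for PFOS (14%), 3 for PFDS (9.45%), 3 for 8:2 FTS (12.9%) and 2 for 8:2 FTOH (20.3%). For 8:2 FTOH this sets 2 libraries against 2.

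**Figure D2:**
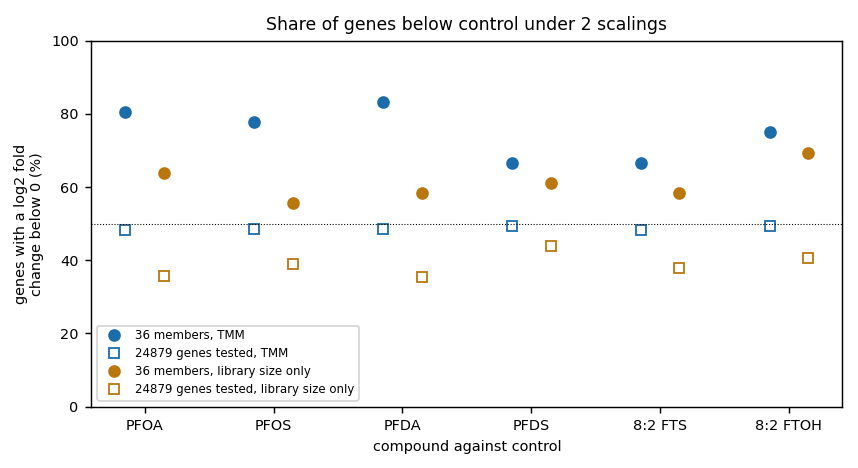
Share of genes with a log2 fold change below 0 for each compound against control, for the 36 members tested (filled circles) and all 24879 genes tested (open squares), with TMM (blue) and with library size only (brown). The members' share is above that of all genes in each compound under both scalings, and library size lowers both, for PFDA from 83.3% to 58.3% of members.

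Summed levels of the members and of the marker lists are set side by side here. The sum of the members was 5614 to 5828 CPM in the control libraries and 5083 to 5555 with PFOA, 5312 to 5529 with PFOS, 5173 to 5491 with PFDA, 5330 to 5960 with PFDS, 5400 to 5548 with 8:2 FTS and 5253 to 5642 with 8:2 FTOH. The 5 cycling cell markers, MKI67, TOP2A, CCNB1, CDK1 and PCNA, summed to 1704 to 1821 CPM in control, 1535 to 1676 with PFOA, 1470 to 1557 with PFOS, 1513 to 1617 with PFDA, 1549 to 1857 with PFDS, 1428 to 1617 with 8:2 FTS and 1461 to 1658 with 8:2 FTOH. The mesenchymal-type markers summed to 93.7 to 101 CPM in control and 76.9 to 86.7 with PFOA, 90.6 to 97.0 with PFOS, 83.9 to 87.4 with PFDA, 82.1 to 99.8 with PFDS, 84.8 to 88.0 with 8:2 FTS and 91.6 to 95.02 with 8:2 FTOH. The sum of the members thus lay below all controls with PFOA, PFOS, PFDA and 8:2 FTS. The cycling cell markers did so with each compound except PFDS, and the mesenchymal-type markers with PFOA, PFDA and 8:2 FTS. The glial markers summed to 13.8 to 15.5 CPM with PFDA, above all controls, and overlapped control with the other 5 compounds. The adrenergic markers lay at 3078 to 3391 CPM with PFOA, below all controls, and overlapped control with the other 5 compounds. No marker passed the adjusted threshold (0 of 28 tested for any compound; lowest adjusted p 0.145 for PFOA, edgeR with Benjamini-Hochberg adjustment). The part of these levels in the members' values was not tested.

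**Figure D3:**
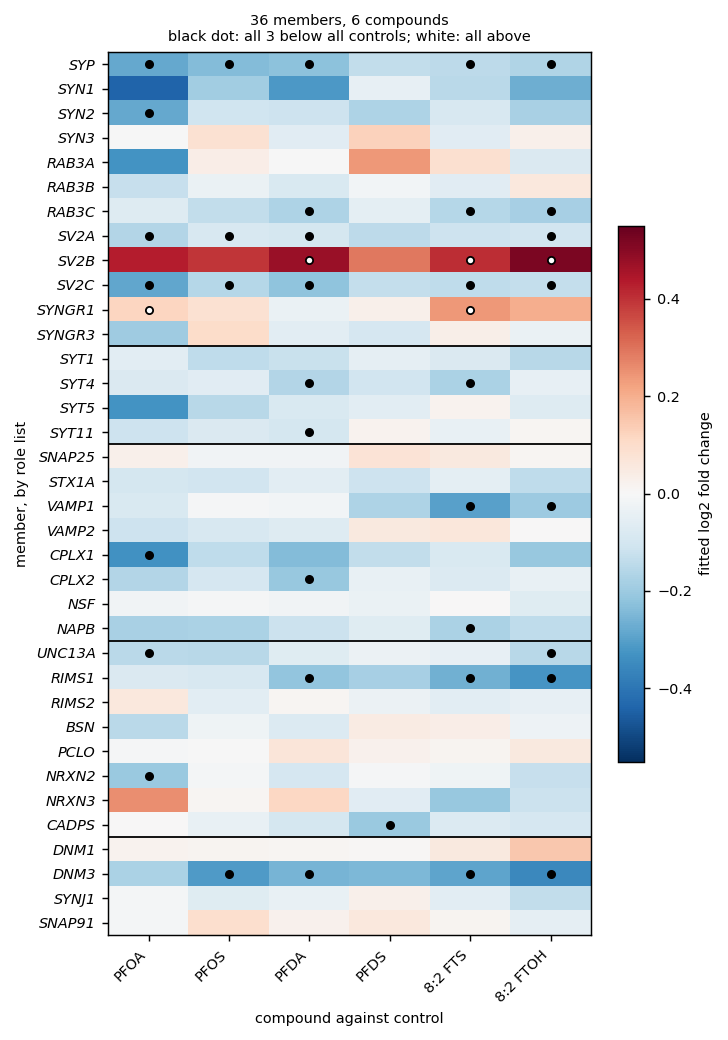
Fitted log2 fold change of the 36 members tested (rows, by role list) for each compound against control (columns), blue for lower and red for higher. Black dots mark the 37 of 216 pairs in which all 3 exposed libraries lay below all 3 controls and white dots the 5 in which they lay above. Of all genes tested, 4.53% to 8.46% lay below and 3.72% to 7.92% above, depending on the compound. SYP and SV2C carry a black dot for 5 of 6 compounds, and SV2B has a white dot for 3.

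By member, 17 of 36 had a value below control for all 6 compounds, 2 (SV2B and DNM1) were above control for all 6, and 17 were mixed. With library size alone 12 of the 17 lower members were below for all 6, and 5 members were above (DNM1, PCLO, SNAP25, SV2B and SYNGR1). Over the 19 normalized libraries, 15 were below for all 6, of which 12 were among the 17, and 5 were above (NSF, PCLO, SNAP25, SNAP91 and SV2B), without DNM1. The share of all genes with the same sign for all 6 compounds was not counted, and the comparisons share their controls. These counts thus have no background and are not read as a result about the members. The promoters of SYP, SYN1 and DNM3, which are among the members with the smallest p, are shown with their motif matches marked. They come from RefSeq (GRCh38.p14), which gave 46 promoters for 31 of the 37 members. SYN1 (chromosome X, minus strand) is shown from 250 to 87 bases before its RefSeq start, chrX:47619944-47620107, ahead of its first exon in the GENCODE annotation. DNM3 (chromosome 1, plus strand) is shown over the 250 bases before its RefSeq start, chr1:171841248-171841497, where GENCODE has no exon of the gene. In the annotation used to count reads DNM3 begins upstream of this, at position 171817887. The window thus lies inside the gene as counted and may not be the only promoter behind its counts. For SYP (chromosome X, minus strand) 30 bases are shown, chrX:49200228-49200257, which lie in an exon of SYP in GENCODE. The SYP stretch was cut around its motif match and so holds a match by construction. The shown stretches thus differ in length and in choice, and their motif content cannot be compared. Capitals mark matches, on either strand, to the REST-type motif, the CRE TGACGTCA and the EGR-type motif GCGNGGGCG.
SYN1: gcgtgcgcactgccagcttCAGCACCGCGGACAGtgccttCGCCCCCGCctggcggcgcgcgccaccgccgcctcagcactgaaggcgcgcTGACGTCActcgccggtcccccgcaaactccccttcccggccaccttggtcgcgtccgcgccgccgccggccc
DNM3: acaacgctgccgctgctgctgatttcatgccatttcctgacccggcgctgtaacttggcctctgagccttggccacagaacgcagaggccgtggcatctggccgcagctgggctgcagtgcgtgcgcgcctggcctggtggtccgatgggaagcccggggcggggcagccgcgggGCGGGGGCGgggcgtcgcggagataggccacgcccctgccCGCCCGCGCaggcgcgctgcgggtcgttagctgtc
SYP: cgagcgcgcgcCGCCCCCGCcgcgccccgc

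The SYN1 stretch held 1 match to each motif, and these did not overlap. The REST-type letters were found in 0.0549% of the 27305 genes with a promoter of this length, the CRE letters in 2.03% and the EGR-type letters in 10.1%. Among the 31 members, the first 2 were found in SYN1 only and the third in 10: AMPH, BSN, DNM3, PCLO, SV2B, SYN1, SYNGR1, SYP, UNC13A and VAMP2. Over the 250 bases before the RefSeq start, DNM3 held 2 EGR-type matches and SYP 1. The motif is rich in G and C, and member promoters were too, with a median GC content of 67.0% against 58.0% for all promoters. Those 10 members include SV2B, which lay above control for all 6 compounds, as well as SYP, SYN1 and DNM3. A match is a description of letters and not a site.

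Vesicle membrane proteins, synapsins and RAB3 genes were considered first. Of the 12 members of this list, 10 were below 0 for PFOA, 11 for PFDA, 7 for PFOS and 8 for each of the other 3 compounds. SYP, which encodes synaptophysin, an abundant vesicle membrane protein of brain, was at 134, 134 and 123 CPM in control replicates 1, 2 and 3, 106, 111 and 105 with PFOA, 107, 113 and 113 with PFOS, 111, 117 and 108 with PFDA, 114, 116 and 127 with PFDS, 113, 119 and 122 with 8:2 FTS and 122, 116 and 112 with 8:2 FTOH. All 15 libraries of the 5 compounds other than PFDS lay below the lowest control, and PFDS overlapped control through replicate 3. The log2 fold change was -0.28 with PFOA (95% interval -0.42 to -0.14, adjusted p = 0.144), -0.24 with PFOS (95% interval -0.38 to -0.10, adjusted p = 0.393) and -0.22 with PFDA (95% interval -0.37 to -0.08, adjusted p = 0.350) by edgeR with Benjamini-Hochberg adjustment. With PFOA it passed at an adjusted p of 0.0134 by DESeq2, and at 0.0264 by edgeR without control replicate 3. Over the 6 edgeR fits that left out 1 control or PFOA library, its adjusted p reached 0.812.

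SV2C, the SV2 gene with the highest level per length here, was at 733, 711 and 726 CPM in control replicates 1, 2 and 3, 564, 642 and 571 with PFOA, 613, 636 and 696 with PFOS, 632, 564 and 662 with PFDA, 650.1, 607 and 725 with PFDS, 670.0, 616 and 682 with 8:2 FTS and 621, 689.5 and 672 with 8:2 FTOH. All 3 libraries lay below control for each compound except PFDS, whose replicate 3 reached into the control range. Its fitted change was -0.29 with PFOA (95% interval -0.45 to -0.13, adjusted p = 0.168) and -0.22 with PFDA (95% interval -0.38 to -0.06, adjusted p = 0.434) by edgeR with Benjamini-Hochberg adjustment. SV2A was wholly below control with PFOA, PFOS, PFDA and 8:2 FTOH, at log2 fold changes of -0.16 to -0.09 over the 6 compounds. With PFDA the separation was negligible, since PFDA replicate 3 was at 170.866 and control replicate 3 at 170.871 CPM. The highest PFOS and PFOA libraries, at 170.021 and 169.838 CPM, were also close to that control.

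SV2B, by contrast, had higher fitted values with every compound, from few reads. It was at 2.27, 2.47 and 2.998 CPM in control replicates 1, 2 and 3, 2.91, 3.81 and 3.65 with PFOA, 3.71, 2.48 and 3.85 with PFOS, 3.25, 3.603 and 3.89 with PFDA, 1.35, 3.62 and 4.16 with PFDS, 3.65, 3.38 and 3.16 with 8:2 FTS and 3.71, 4.07 and 3.103 with 8:2 FTOH. The libraries lay wholly above control with PFDA, 8:2 FTS and 8:2 FTOH and overlapped it otherwise. Its 16 to 115 counts per library left wide intervals: the log2 fold change was 0.52 with 8:2 FTOH (95% interval -0.04 to 1.07, adjusted p = 0.677) by edgeR with Benjamini-Hochberg adjustment, and the values for the other 5 compounds were 0.29 to 0.48. SYNGR1, a synaptogyrin, was the other member of the list with libraries wholly above control, for PFOA and 8:2 FTS, at log2 fold changes of 0.12 and 0.24.

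SYN1, which encodes the main synapsin, had the largest fitted decrease of any member and compound. It was at 38.7, 35.4 and 28.6 CPM in control replicates 1, 2 and 3, 23.7, 29.3 and 22.9 with PFOA, 28.1, 29.5 and 32.9 with PFOS, 25.3, 30.3 and 27.4 with PFDA, 31.7, 31.7 and 35.9 with PFDS, 30.6, 32.3 and 29.8 with 8:2 FTS and 28.7, 33.7 and 21.3 with 8:2 FTOH. Control replicate 3 was under the other controls, and no compound lay wholly below control. The log2 fold change was -0.44 with PFOA (95% interval -0.69 to -0.20, adjusted p = 0.168) and -0.31 with PFDA (95% interval -0.56 to -0.07, adjusted p = 0.469) by edgeR with Benjamini-Hochberg adjustment. Without control replicate 3 the PFOA value was -0.55 with an adjusted p of 0.0303 (edgeR with Benjamini-Hochberg adjustment). Without control replicate 1 it was -0.35. Over the 6 edgeR fits that left out 1 control or PFOA library, the adjusted p of SYN1 reached 0.844. A transcript on the same strand overlaps 24.9% of its exon length and ARAF on the other strand 8 bases, so reads there, which count for no gene by default, are missing from its value. SYN2 lay wholly below control with PFOA, at a log2 fold change of -0.28 with PFOA (95% interval -0.47 to -0.09, adjusted p = 0.285) by edgeR with Benjamini-Hochberg adjustment, and SYN3 was -0.06 to 0.13 over the 6 compounds.

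RAB3A, a GTPase of vesicle docking, had fitted values on both sides of control. Its levels were 38.8, 43.4 and 46.96 CPM in control replicates 1, 2 and 3, 27.8, 40.2 and 34.7 with PFOA, 41.98, 45.99 and 44.7 with PFOS, 42.5, 41.6 and 44.7 with PFDA, 49.7, 46.1 and 56.04 with PFDS, 48.4, 41.6 and 47.2 with 8:2 FTS and 45.5, 43.3 and 32.1 with 8:2 FTOH. PFOA replicates 1 and 3 were below all controls and replicate 2 was within them, whereas PFDS replicates 1 and 3 were above all controls. Its fitted change was -0.33 with PFOA (95% interval -0.55 to -0.10, adjusted p = 0.289) and 0.24 with PFDS (95% interval 0.02 to 0.46, adjusted p = 0.844) by edgeR with Benjamini-Hochberg adjustment. RAB3A shares 9.2% of its exon length with MPV17L2 on the other strand, so reads there are missing from its value. RAB3C, its relative in secretory cells, was at 178, 179 and 202 CPM in control replicates 1, 2 and 3, 170.0, 191 and 170.0 with PFOA, 166, 159 and 183 with PFOS, 156, 167 and 174 with PFDA, 181, 163 and 193 with PFDS, 173, 163 and 165 with 8:2 FTS and 170.3, 158 and 164 with 8:2 FTOH. It lay wholly below control with PFDA, 8:2 FTS and 8:2 FTOH, the last at -0.18 with 8:2 FTOH (95% interval -0.34 to -0.03, adjusted p = 0.522) by edgeR with Benjamini-Hochberg adjustment, and RAB3B was -0.13 to 0.06 over the 6 compounds.

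The 4 synaptotagmins were below 0 in 4 of 4 cases for PFOA, PFOS and PFDA and 3 of 4 for the other compounds. SYT4, a synaptotagmin of dense-core vesicles that lacks calcium binding by its first C2 domain, was at 359.7, 347 and 381 CPM in control replicates 1, 2 and 3, 346, 377 and 307 with PFOA, 325, 351 and 365 with PFOS, 314, 324 and 335 with PFDA, 326, 324 and 359.8 with PFDS, 334, 292 and 337 with 8:2 FTS and 355, 351 and 350.0 with 8:2 FTOH. It lay wholly below control with PFDA and 8:2 FTS, at log2 fold changes of -0.16 with PFDA (95% interval -0.31 to -0.01, adjusted p = 0.560) and -0.18 with 8:2 FTS (95% interval -0.33 to -0.02, adjusted p = 0.559) by edgeR with Benjamini-Hochberg adjustment. SYT5 was at 51.1, 57.7 and 39.5 CPM in control replicates 1, 2 and 3, 36.8, 40.4 and 40.6 with PFOA, 44.02, 42.6 and 46.7 with PFOS, 48.3, 45.2 and 46.3 with PFDA, 44.9, 47.03 and 50.3 with PFDS, 48.7, 48.4 and 53.6 with 8:2 FTS and 47.7, 48.9 and 43.96 with 8:2 FTOH. Control replicate 3 was the lowest of its controls, under 2 of the 3 PFOA libraries, and the PFOA value was -0.33 with PFOA (95% interval -0.53 to -0.13, adjusted p = 0.194) by edgeR with Benjamini-Hochberg adjustment. SYT1 was -0.15 to -0.05 over the 6 compounds and SYT11 -0.11 to 0.02.

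Of the 8 SNARE, complexin and recycling genes, 7 were below 0 for PFOA, 8 for PFOS and PFDA, 6 for PFDS and 8:2 FTOH and 5 for 8:2 FTS. SNAP25, the most highly counted of them, stayed near control, at -0.02 to 0.08 over the 6 compounds with no interval beyond -0.16 or 0.22. CPLX1 was at 61.8, 61.2 and 50.3 CPM in control replicates 1, 2 and 3, 45.7, 48.4 and 43.7 with PFOA, 51.5, 54.9 and 51.1 with PFOS, 49.7, 44.7 and 52.2 with PFDA, 46.5, 54.5 and 56.6 with PFDS, 55.2, 49.5 and 58.9 with 8:2 FTS and 52.04, 58.9 and 36.7 with 8:2 FTOH. All PFOA libraries lay below control, and 8:2 FTOH replicate 3 was the lowest of the 21. On the log2 scale the change was -0.33 with PFOA (95% interval -0.56 to -0.11, adjusted p = 0.274) and -0.24 with PFDA (95% interval -0.46 to -0.02, adjusted p = 0.552) by edgeR with Benjamini-Hochberg adjustment. CPLX2 lay wholly below control with PFDA, at -0.21 with PFDA (95% interval -0.37 to -0.04, adjusted p = 0.486) by the same test and adjustment.

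NAPB, which encodes a SNAP cofactor that brings NSF to spent SNARE bundles, was at 94.03, 100.2 and 113 CPM in control replicates 1, 2 and 3, 88.7, 96.9 and 85.5 with PFOA, 91.01, 86.6 and 94.3 with PFOS, 93.2, 92.2 and 96.97 with PFDA, 101, 89.6 and 102 with PFDS, 92.4, 86.7 and 92.6 with 8:2 FTS and 96.2, 87.6 and 95.5 with 8:2 FTOH. Control replicate 3 was the highest of its 21 values, and 8:2 FTS was the only compound wholly below control. The log2 fold change was -0.18 with PFOA (95% interval -0.34 to -0.02, adjusted p = 0.415) and -0.17 with PFOS (95% interval -0.33 to -0.02, adjusted p = 0.701) by edgeR with Benjamini-Hochberg adjustment. Without control replicate 3 the PFOS value was -0.10. STX1A was -0.14 to -0.05 over the 6 compounds, VAMP2 -0.11 to 0.06, NSF -0.07 to 0.00 and VAMP1 -0.30 to -0.004.

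Of the 8 active zone, priming and neurexin genes, 5 were below 0 for PFOA and PFDA, 7 for PFOS and 8:2 FTOH, and 6 for PFDS and 8:2 FTS. RIMS1, a scaffold that links RAB3 to calcium channels, was at 33.05, 36.6 and 34.5 CPM in control replicates 1, 2 and 3, 29.9, 34.1 and 34.3 with PFOA, 32.1, 34.3 and 31.7 with PFOS, 26.99, 30.7 and 32.02 with PFDA, 24.9, 34.8 and 31.7 with PFDS, 30.3, 30.4 and 25.6 with 8:2 FTS and 29.8, 29.9 and 22.2 with 8:2 FTOH. It lay wholly below control with PFDA and both fluorotelomers, and 8:2 FTOH replicate 3 was the lowest library. The log2 fold change was -0.26 with 8:2 FTS (95% interval -0.49 to -0.04, adjusted p = 0.541) and -0.33 with 8:2 FTOH (95% interval -0.55 to -0.10, adjusted p = 0.398) by edgeR with Benjamini-Hochberg adjustment, and -0.22 for 8:2 FTOH when its replicate 3 was left out. CADPS, the priming factor of dense-core vesicles, was at 39.8, 40.8 and 36.5 CPM in control replicates 1, 2 and 3, 42.2, 37.5 and 37.9 with PFOA, 36.3, 36.4 and 41.4 with PFOS, 37.2, 34.6 and 37.5 with PFDA, 33.7, 31.8 and 36.1 with PFDS, 31.5, 38.3 and 42.2 with 8:2 FTS and 34.7, 33.4 and 42.9 with 8:2 FTOH. PFDS was the compound wholly below control, at -0.20 with PFDS (95% interval -0.41 to 0.00, adjusted p = 0.888) by edgeR with Benjamini-Hochberg adjustment.

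Of the other genes of this list, UNC13A lay wholly below control with PFOA and 8:2 FTOH, at -0.15 for each, and NRXN2 with PFOA, at -0.21. PCLO was -0.01 to 0.07 over the 6 compounds, RIMS2 -0.06 to 0.06 and BSN -0.15 to 0.05. NRXN3, with 73 to 369 counts per library, was -0.21 to 0.25.

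Among the endocytosis genes, DNM3, a neuronal dynamin, stood apart from DNM1. DNM3 was at 59.3, 54.9 and 48.4 CPM in control replicates 1, 2 and 3, 46.5, 50.3 and 47.1 with PFOA, 43.7, 40.6 and 46.5 with PFOS, 47.5, 44.7 and 44.2 with PFDA, 46.8, 38.01 and 51.6 with PFDS, 41.4, 43.9 and 47.8 with 8:2 FTS and 43.5, 42.6 and 41.1 with 8:2 FTOH. It lay wholly below control with PFOS, PFDA and both fluorotelomers, while PFOA and PFDS each had a library above the lowest control. DNM3 had a log2 fold change of -0.31 with PFOS (95% interval -0.50 to -0.12, adjusted p = 0.397), -0.29 with 8:2 FTS (95% interval -0.48 to -0.10, adjusted p = 0.345) and -0.35 with 8:2 FTOH (95% interval -0.55 to -0.16, adjusted p = 0.201) by edgeR with Benjamini-Hochberg adjustment. DNM1, the main dynamin of vesicle recycling, overlapped control with all 6 compounds, at 0.01 to 0.15. SYNJ1 was -0.13 to 0.03 and SNAP91 -0.05 to 0.09. AMPH, at 0.178, 0.0838 and 0 CPM in control replicates 1, 2 and 3, 0, 0.299 and 0.0902 with PFOA, 0.0646, 0.300 and 0 with PFOS, 0.0854, 0 and 0.107 with PFDA, 0, 0.148 and 0.117 with PFDS, 0.0962, 0.154 and 0 with 8:2 FTS and 0.165, 0.0789 and 0 with 8:2 FTOH, was too low to compare.

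**Figure D4:**
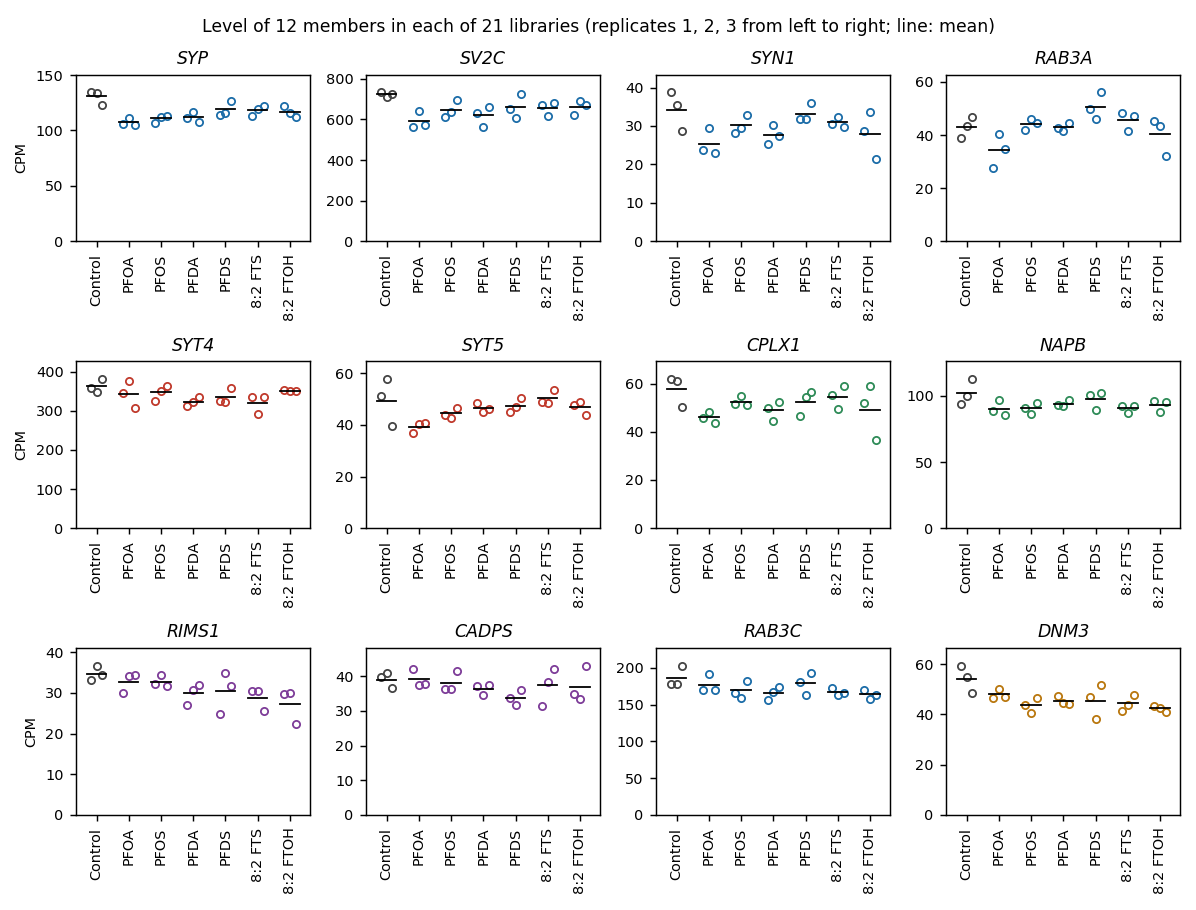
CPM of the 12 members named for the smallest p in a comparison, in each of 21 libraries; every axis starts at 0, circles are replicates 1, 2 and 3 from left to right and the line is the group mean. For SYP and SV2C the controls sit above all exposed libraries except PFDS replicate 3, SYN1, SYT5 and CPLX1 have a low control replicate 3, and the group mean of RAB3A is lowest with PFOA and highest with PFDS.

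The mean of the 6 compounds was then set against control, a comparison that uses all 18 exposed libraries. Again 0 of 36 members passed the adjusted threshold by edgeR, while 87 of 24879 genes did (0.35%). At an unadjusted p under 0.05, 9 members were lower and 0 higher, against 5.67% and 4.3% of all genes, and 29 of 36 were below 0 (49.1% of all genes), with a median of -0.08. DNM3 came closest, at -0.27 (95% interval -0.41 to -0.13, adjusted p = 0.0736), followed by SYP at -0.20 (95% interval -0.30 to -0.09, adjusted p = 0.0892), both by edgeR with Benjamini-Hochberg adjustment. In fold terms DNM3 was at 0.828 and SYP at 0.872 of control. SV2C was -0.18 (95% interval -0.30 to -0.06, adjusted p = 0.226), SYN1 -0.24 (95% interval -0.41 to -0.06, adjusted p = 0.315), NAPB -0.14 (95% interval -0.26 to -0.03, adjusted p = 0.366) and CPLX1 -0.19 (95% interval -0.35 to -0.03, adjusted p = 0.395) by the same test and adjustment. DNM3 and SYP passed by DESeq2, at adjusted p-values of 0.0347 and 0.0171, where 1.29% of genes did. They also passed by edgeR without control replicate 3, at 0.0251 and 0.0412. Over the 21 edgeR fits that left out 1 library, however, the adjusted p reached 0.553 for DNM3 and 0.655 for SYP. Without control replicate 1 the DNM3 value was -0.20. For 0 members did all 18 exposed libraries lie below or above all 3 controls, which 0.342% and 0.129% of all genes did.

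**Figure D5:**
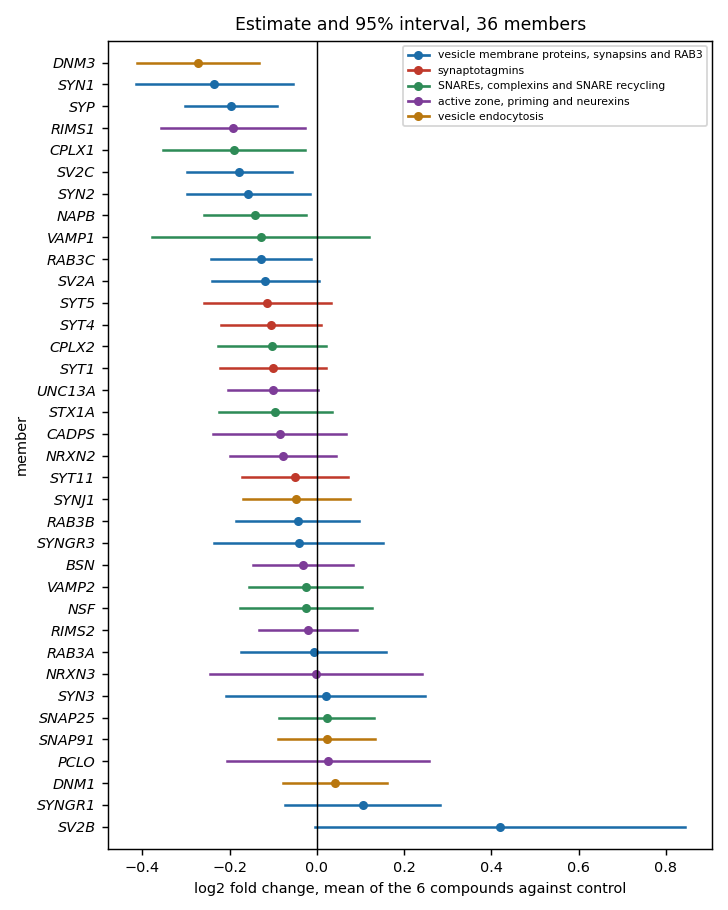
Log2 fold change of the mean of the 6 compounds against control for the 36 members tested, with 95% intervals, coloured by role and ordered by value. The 9 intervals that exclude 0 are all on the low side, from DNM3 at -0.27 to RAB3C at -0.13, and SV2B has the widest interval.

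Whether the compounds differed from each other was asked without the control libraries. In a single test over the 6 groups, 0 of 36 members and 0 of 24879 genes (0%) passed by edgeR, and 3 members had an unadjusted p under 0.05, beside 4.18% of all genes: RAB3A, SYT5 and SYN1. For RAB3A p was 0.000415 in edgeR's test, and 0.430 after Benjamini-Hochberg adjustment. RAB3A had the smallest value, and its group means were lowest with PFOA and highest with PFDS. By DESeq2 also 0 members passed in this test, and without a filter on low counts edgeR passed 1, RAB3A.

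All 6 compounds were given at the same dose and time, so 7 pairs that differ by chain length, head group or fluorination were compared. In none did a member pass by edgeR with Benjamini-Hochberg adjustment, and by DESeq2 the count was 0 in each as well. Among all genes 1 passed for PFDS against PFOS (0.00402%) and 0 (0%) in the other 6 pairs. For 34 to 35 of the 36 members the 95% interval of the difference lay within a 1.5-fold change, and for all 36 within 2-fold, in each pair.

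Chain length gave the following differences. In PFDA against the shorter PFOA, 14 of 36 members were below 0 (49.4% of all genes), and there were 2 members higher at an unadjusted p under 0.05 (1.47% of all genes) and 0 lower (1.46%): RAB3A at 0.32 (95% interval 0.10 to 0.55) and SYT5 at 0.25 (95% interval 0.05 to 0.44). Libraries lay wholly above for 4 members (4.81%) and wholly below for 0 (5.16%). Between the sulfonic acids, PFDS against PFOS, 14 members were below 0 (51.1% of all genes) and 0 members had an unadjusted p under 0.05 (2.36% of all genes lower and 2.01% higher). There 3 members lay wholly above (3.94%) and 1 wholly below (4.81%), and RAB3A was at 0.20 (95% interval -0.02 to 0.42).

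Head group was compared at each chain length. In PFOS against PFOA 14 members were below 0 (50.3% of all genes). There were 4 members higher at an unadjusted p under 0.05 (2.81% of all genes) and 0 lower (2.09%): RAB3A at 0.36 (95% interval 0.14 to 0.59), NRXN2 at 0.19 (95% interval 0.03 to 0.35), SYNGR3 at 0.29 (95% interval 0.03 to 0.56) and SYN1 at 0.25 (95% interval 0.00 to 0.50). The PFOS libraries lay wholly above those of PFOA for 8 members (6.51%) and below for 3 (6.35%). PFDS against PFDA had 12 members below 0 (50.4% of all genes), with 3 higher (2.63%) and 0 lower (2.96%): RAB3A at 0.24 (95% interval 0.02 to 0.46), SYN1 at 0.27 (95% interval 0.02 to 0.51) and CPLX2 at 0.17 (95% interval 0.00 to 0.33). Libraries lay wholly above for 2 members (4.2%) and below for 0 (5.23%). These pairs share groups, so the recurrence of RAB3A is not independent.

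Of the fluorotelomers 8:2 FTS was compared in 3 pairs. For 8:2 FTS against 8:2 FTOH, 14 members were below 0 (49.4% of all genes), 0 members had an unadjusted p under 0.05 (1.78% of all genes lower and 1.48% higher), and 1 lay wholly below (4.2%) and 1 above (4.23%), with differences of -0.13 to 0.17 over the 36. Against PFOS, 8:2 FTS had 14 members below 0 (50.1%), 0 members at that p (1.46% and 1.41%), 1 wholly below (4.92%) and 3 above (4.55%), and differences of -0.30 to 0.17. Against PFDS it had 24 members below 0 (49.8%), 0 at that p (1.85% and 2.25%), 1 wholly below (3.67%) and 0 above (4.17%), and differences of -0.19 to 0.21.

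Further genes of the same pathways were looked at, 92 from a list of related vesicle, SNARE, active zone and endocytosis genes, of which 80 were tested. In the comparisons of single compounds with control, 0 passed in the main edgeR fit. At an unadjusted p under 0.05, 11 were lower and 4 higher for PFOA, 6 lower and 2 higher for PFDA, 5 lower and 1 higher for PFOS, 1 lower and 5 higher for PFDS, 1 lower and 2 higher for 8:2 FTS and 3 lower and 2 higher for 8:2 FTOH. The shares of all genes were 5.6% and 4.46% for PFOA, 4.39% and 4.04% for PFDA, 3.57% and 3.26% for PFOS, 3.03% and 2.56% for PFDS, 4.28% and 3.55% for 8:2 FTOH and 4.2% and 3.57% for 8:2 FTS. Their median was -0.06 for PFOA and -0.01 to 0.00 for the other compounds, so they lay nearer to all genes than the members did, a difference that was not tested.

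In the mean of the 6 compounds 1 of the 80 passed, HSPA8, the chaperone that strips clathrin from coated vesicles and serves protein folding throughout the cell. It was at 1294, 1493 and 1202 CPM in control replicates 1, 2 and 3, 1182, 1161 and 1073 with PFOA, 993, 1051 and 1079 with PFOS, 958, 1029 and 1025 with PFDA, 1397, 1043 and 1182 with PFDS, 987, 888 and 1208 with 8:2 FTS and 1134, 980.0 and 905 with 8:2 FTOH. Its log2 fold change was -0.32 (95% interval -0.47 to -0.17, adjusted p = 0.0440) by edgeR with Benjamini-Hochberg adjustment, and the exposed and control libraries overlapped. The call was lost in 15 of 21 fits that left out 1 library, at an adjusted p of 0.736 and a value of -0.22 without control replicate 2, the highest of its controls. HSPA8 had the smallest p of the 80 for PFOS, PFDA, 8:2 FTS and 8:2 FTOH, at log2 fold changes of -0.41 to -0.35. For PFOA that was ERC1, an active zone scaffold, at -0.27 with all 3 libraries below control, and for PFDS it was RPH3A, a RAB3 effector, at 0.28. In 14 alternative fits for each compound, HSPA8 passed in 3 for PFDA and in 2 each for PFOS, 8:2 FTS and 8:2 FTOH. ERC1 passed in 1 and NLGN2 in 2 for PFOA, and PPFIA4 in 2 for PFDA and 1 for PFOS. RAB3IP for 8:2 FTOH, RIMS3 for 8:2 FTS and RPH3A and SNAP47 for PFDS passed in 0. Calls over all genes are not set beside these counts, which are thus not read as a result about these genes.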

How the data were processed

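Raw counts per gene were deposited by the authors for 21 libraries. Per the submitters' processing notes, reads were processed with HISAT2, SAMtools, featureCounts 2.0.1 and DESeq2 on hg38. Per the file headers, featureCounts ran with default options, so strand was ignored, although per the labels the library kit marks it, and reads overlapping several genes were not counted. The authors also deposited a normalized table, a signal of counts divided by size factors, for 19 libraries; whole reads were recovered from it for 100% of values (tolerance 0.01), all equal to the raw counts, so it served only to name the 19 libraries. Exon lengths are those of the deposited count table, per the file headers.

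The 24879 genes passing filterByExpr were fitted with edgeR 4.0.16 (TMM, robust quasi-likelihood test, all 21 libraries) in R 4.3.3, with Benjamini-Hochberg adjustment at 0.05. The common biological coefficient of variation was 0.1124. Depths of 7680024 to 30429746 counts limit low genes most. Alternatives were DESeq2 1.42.0, its size factors, library size only, other filters (19795 or 45863 genes), a replicate block, the 19 libraries and leaving out each library. Scripts were tested on simulated data. Values in every library are given for members with the smallest p in each comparison with control, the mean of the 6 compounds and the test of any difference, and for the highest and lowest control level of each role list. The members and lists were chosen with earlier results of these data known. The main fit treated the samples as unpaired by replicate number.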

Additional observations from a re-analysis of the deposited data

How the results depend on the processing

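The count of members past an adjusted p of 0.05 was 0 in all 15 comparisons and stayed 0 in 224 of 235 alternative fits; no named member value reversed. For PFOA against control it was 2 without a filter on low counts (SV2C, SYN1), 2 by DESeq2 (SV2C, SYP), 4 in the 19 libraries of the normalized table (CPLX1, SYN1, SYP, SYT5), and 0 to 3 leaving out 1 library each, with 3 (SYN1, SYP, SYT5) without control replicate 3. For the mean of the 6 compounds it was 1 without a filter (DNM3), 2 by DESeq2 (DNM3, SYP), 1 in the 19 libraries (DNM3), and 0 to 2 leaving out 1 library each: 2 without control replicate 3 or PFDS replicate 3 (DNM3, SYP) and 1 without PFDS replicate 1 (DNM3). For any difference among the compounds it was 1 without a filter (RAB3A). The cause was not tested. Calls over all genes moved more: PFOA against control had 8, with 161 without a filter, 128 by DESeq2, 174 in the 19 libraries and 93 with only its 2 groups fitted. The mean of the 6 compounds had 87 over all genes, with 286 without a filter, 196 by DESeq2 and 161 in the 19 libraries. Calls over all genes are not given here for the fits leaving out 1 library, nor for any difference among the compounds without a filter. With the replicate number as a block 0 members passed in all 15 comparisons, and HSPA8 in the mean of the 6 compounds had an adjusted p of 0.0585 (edgeR). Same-numbered samples correlated at -0.12 to 0.132, with 1 of 63 over 0.1, and differently numbered ones at -0.129 to 0.13, with 1 of 126. The ranges are alike, so pairing by number was not seen. It is not excluded, because the correlations use deviations from means of only 3 libraries.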
